A study of Mus musculus with 30 samples.

Results

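Uninjected muscle fibres of wild type mice collected on the day labelled 14 were compared with those collected on the day labelled 7. The members were chosen by sample title alone, and they are 4 fibres of day 14 and 4 fibres of day 7, 8 of the 30 single-fibre arrays of the study. Each sample is 1 fibre freed with collagenase from the extensor digitorum longus (EDL), a fast muscle of the lower leg, of male CD1 mice, an outbred stock, given as 8 weeks old. The other 22 fibres came from EDL muscles injected with adeno-associated virus carrying MCU (7 fibres), an shRNA against MCU (7 fibres) or a control vector (8 fibres), and were collected on the same labelled days. MCU is the channel through which calcium enters mitochondria. One label gives the control vector as an shRNA against luciferase and another as a vector with no insert. The wild type fibres carry no vector and no altered allele, so their day label is a collection day matched to the injected muscles and not a time after any treatment. They were picked by hand as intact fibres, whereas injected fibres were also chosen for green fluorescence and for their Mcu transcript. The labels do not name the animal of each fibre, so the p-values below measure the spread between fibres, some of which may come from 1 mouse. That spread was pooled over all 30 arrays, 22 of them of injected fibres.

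EDL fibres are mostly of the fast glycolytic types. Muscle fibres adjust many transcripts within hours to contraction, feeding, growth factors and time of day: contraction and adrenergic drive act through calcium and cyclic AMP on NR4A receptors and PGC-1alpha, cytokines and growth hormone act through STAT proteins on the SOCS genes, and the circadian clock drives a set of leucine zipper factors. These pathways are given here as background for the gene groups that follow.

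Levels are log2 processed intensities minus the 75th percentile of the same array, so that 0 is the brightness below which 75% of probes lie and a difference of 1 is a 2-fold difference. The 75th percentile was 114 to 125 intensity units on the day 14 arrays and 126 to 136 on the day 7 arrays. Between 52.2% and 59.5% of spots were well above background at day 14, against 54.6% to 58.2% at day 7, and no spot was saturated. Pearson's r over genes was 0.968 to 0.979 among day 14 fibres, 0.973 to 0.984 among day 7 fibres and 0.959 to 0.976 between the days. The 4 day 14 fibres lay on 1 slide together with the 4 MCU-vector fibres of day 14, and the 4 day 7 fibres on another slide with the 3 MCU-vector fibres of day 7. Day and slide therefore cannot be told apart in the wild type fibres. RNA of each fibre went through 18 cycles of amplification before labelling with random primers, which keeps no strand information.

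Of 23342 genes tested, 563 passed an adjusted p of 0.05 (limma, Benjamini-Hochberg adjustment), which is 2.41% of all. In day 14 fibres 299 genes rose (1.28%) and 264 fell (1.13%) relative to day 7 fibres. The size of the difference was at least 2-fold for 265 of them, 120 higher and 145 lower, with a median size of 0.95 on the log2 scale. The median difference over all genes was 0.05. Scaled to the array median instead of the 75th percentile, 387 genes passed, with the split turned to 144 higher and 243 lower. The 4 fibres of one day lay wholly above or below the 4 of the other for 531 of the 563 called genes, and for 2668 of 23334 genes in all (11.4%). Of the called genes 462 were well above background on all 8 arrays, 19 on no day 7 array and 19 on no day 14 array. The number called depended on single fibres: it was 167 without day 14 fibre 3, 259 without day 14 fibre 4, 246 without day 7 fibre 2, 254 without day 7 fibre 1, 269 without day 7 fibre 4 and 365 without day 7 fibre 3, and 526 and 451 without day 14 fibres 1 and 2. A core of 134 genes, 64 higher and 70 lower, was called in all 8 of these fits.

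The labelled fibre type was checked first. Myh4, the myosin heavy chain of type IIb fibres, named as a fibre type marker and not by the rule for other genes, was at 7.35, 7.40, 7.35 and 7.45 in day 14 fibres, against 7.51, 7.48, 7.57 and 7.43 in day 7 fibres, and did not pass the test (log2 difference -0.11, adjusted p = 0.97, limma). Myh1, the myosin of type IIx fibres, was at 3.58, 0.43, 0.23 and -0.30 in day 14 fibres, against 5.68, 3.11, 3.48 and 4.19 in day 7 fibres. Day 14 fibres 2 to 4 lay below every day 7 fibre and fibre 1 lay among them, and the difference of -3.13 with a standard error of 1.24 did not pass (adjusted p = 0.195, limma). Slow myosin Myh7 ranged from -0.79 to -0.51 at day 14 and from -0.79 to -0.55 at day 7. All 8 fibres thus had a signal of the fast myosin Myh4 far above that of the slow myosin Myh7, with less Myh1 signal in 3 day 14 fibres. Signals of different probes do not measure the relative amounts of their transcripts. Since Myh1 was lower in 3 of 4 day 14 fibres, the test was repeated with the levels of Myh4 and Myh1 as covariates: 280 genes passed, 208 of them among the 563, and 118 of the core of 134.

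**Figure D1:**
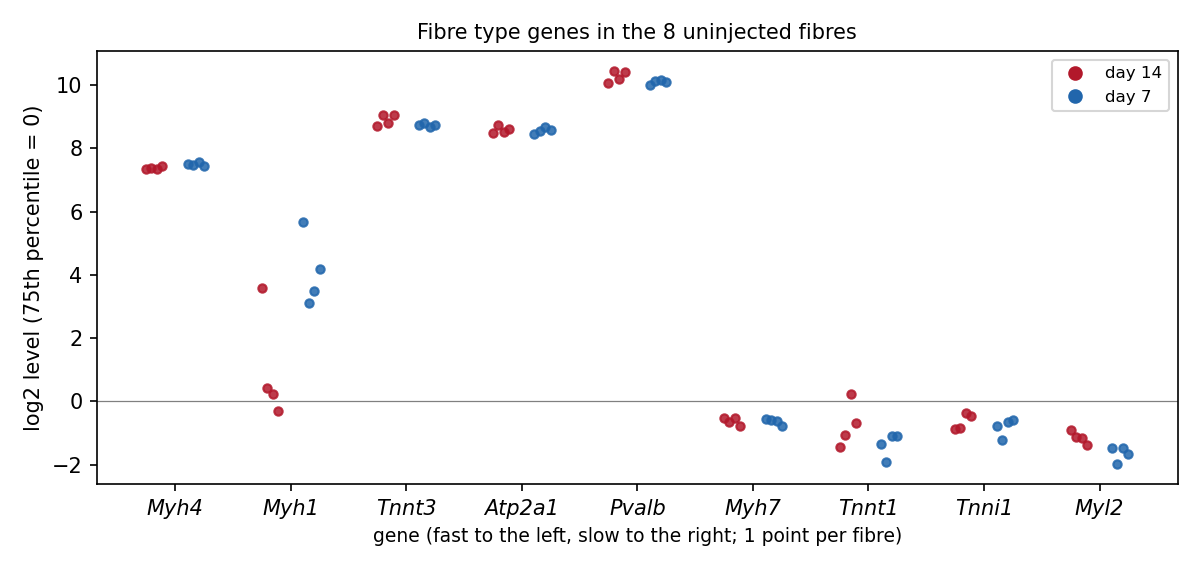
Levels (log2 processed signal minus the 75th percentile of the array) of 9 fibre type genes in wild type fibres, day 14 and day 7, with a point for each fibre. Myh4, Tnnt3, Atp2a1 and Pvalb are high in all 8 fibres, Myh7, Tnni1 and the other slow genes are low, and Myh1 spreads from -0.30 to 3.58 at day 14 and from 3.11 to 5.68 at day 7.

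Mcu, the gene the study manipulates, was at 2.79, 2.15, 2.52 and 2.37 in day 14 fibres, against 2.73, 2.47, 2.55 and 2.92 in day 7 fibres. Its difference of -0.21 with a standard error of 0.38 did not pass (adjusted p = 0.847, limma), and the days overlapped. None of the 12 measured members of the MCU complex passed, and their median difference was -0.05. In MCU-vector fibres the same day contrast of Mcu was 3.09.

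The largest differences among genes with a symbol included several whose probe was measured on 1 side only. Stx3, a syntaxin of the vesicle fusion machinery (probe at mm9 chr19:11850243-11850302), was at -0.58, -1.35, -0.78 and -1.0 in day 14 fibres, all well above background, and at -5.36, -3.95, -5.49 and -5.40 in day 7 fibres, none of them above it. Its signal was at least 5.08-fold higher at day 14 (adjusted p = 3.22e-08, limma). Such a fold is a bound, set by the dimmest probes still above background on the arrays where the gene was not. Espn, an actin-bundling protein (chr4:151495188-151495247), was at -0.50, -0.54, -0.52 and -1.54 at day 14, against -4.37, -4.61, -5.14 and -5.10 at day 7, and was at least 5.65-fold higher (adjusted p = 1.93e-07). A dimmer second probe for Espn, also above background only at day 14, passed as well (adjusted p = 0.011). Xdh, xanthine dehydrogenase, which makes uric acid from purines (chr17:74233511-74233570), was at 0.71, -0.88, 1.02 and -0.85 in day 14 fibres, against -4.31, -4.67, -3.36 and -4.85 in day 7 fibres, at least 9.17-fold higher (adjusted p = 1.21e-06). All 4 day 14 fibres carried each of these transcripts at a measurable level.

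The opposite pattern, measured at day 7 and in no day 14 fibre, was led by Hes1, Tmem232 and Gdpd3. Tmem232, a membrane protein gene (chr17:65605346-65605405), was at -5.18, -4.59, -5.04 and -5.19 in day 14 fibres, against -1.28, 0.84, -0.47 and -0.89 in day 7 fibres, and was at least 7.74-fold lower at day 14 (adjusted p = 5.26e-07, limma). Hes1, a repressor that Notch signalling induces (chr16:30067820-30067879), was at -3.63, -2.54, -5.10 and -3.99 at day 14, against -0.44, 0.39, -0.45 and 0.42 at day 7, at least 9.11-fold lower (adjusted p = 0.000788). Gdpd3, a lysophospholipase D, was at -3.09, -4.80, -3.13 and -3.32 at day 14, against -1.06, -1.15, -0.41 and -1.38 at day 7, at least 4.65-fold lower (adjusted p = 0.00179). These 6 genes were called in every fit that left out 1 wild type fibre. The zinc finger gene Zfp780b was at least 3.36-fold lower at day 14 (adjusted p = 0.000788), while its other probe gave -0.50. Notch3, a Notch receptor, was at -5.53, -4.26, -4.27 and -3.22 at day 14, against -2.47, -2.66, 1.67 and -2.97 at day 7. It was at least 3.29-fold lower (adjusted p = 0.0493), but day 7 fibre 3 stood far above the next and Notch3 was called in only 1 of the 8 fits, with an adjusted p of 0.144 without that fibre.

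Among genes with a symbol that were measured on both sides the smallest p belonged to Tmem14c, a mitochondrial membrane protein needed for haem synthesis in red cell precursors (chr13:41117584-41117643). It was at 1.39, 1.81, 1.61 and 1.64 in day 14 fibres, against -0.79, -0.95, -0.43 and -0.55 in day 7 fibres, 4.89-fold higher (log2 difference 2.29, standard error 0.19, adjusted p = 1.27e-07, limma). Flcn, folliculin, a tumour suppressor that acts on lysosomal nutrient sensing (chr11:59605260-59605319), was at 3.37, 3.39, 3.28 and 3.40 at day 14, against 2.01, 1.72, 1.63 and 2.09 at day 7, 2.83-fold higher (adjusted p = 3.04e-06). The spread within the day 14 fibres was an SD of 0.05, and a second Flcn probe differed by 2.14. Psmc3ip, a partner of meiotic recombinases, was at 0.03, 0.34, 0.13 and 0.15 at day 14, against -2.32, -1.97, -1.88 and -1.41 at day 7, 4.15-fold higher (adjusted p = 4.66e-05).

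Ppp1r1c, a protein phosphatase inhibitor subunit, had the smallest p among the falls. It was at -3.14, -3.52, -2.66 and -3.19 in day 14 fibres, where 2 of 4 were above background, against -0.50, -0.15, -0.01 and -0.41 in day 7 fibres (log2 difference -2.86, standard error 0.26, adjusted p = 1.93e-07, limma). Pigs, a subunit of the transamidase that attaches GPI anchors (chr11:78156210-78156269), was at -0.89, -0.42, -1.06 and -0.53 at day 14, against 1.12, 1.32, 1.04 and 0.84 at day 7 (-1.81, adjusted p = 6.41e-07). Marchf8, a membrane-bound ubiquitin ligase, was at 0.40, 0.47, 0.21 and -0.09 at day 14, against 1.60, 1.65, 1.49 and 1.60 at day 7 (-1.33, adjusted p = 1.21e-06). Fzd4, a frizzled receptor for Wnt and norrin ligands, was at 0.39, -0.25, -0.27 and -0.01 at day 14, against 2.37, 2.00, 2.00 and 2.58 at day 7 (-2.27, adjusted p = 4.66e-05). For these 4 genes the gap between the days was wider than the spread within either day, and none lost its call when any 1 fibre was left out.

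**Figure D2:**
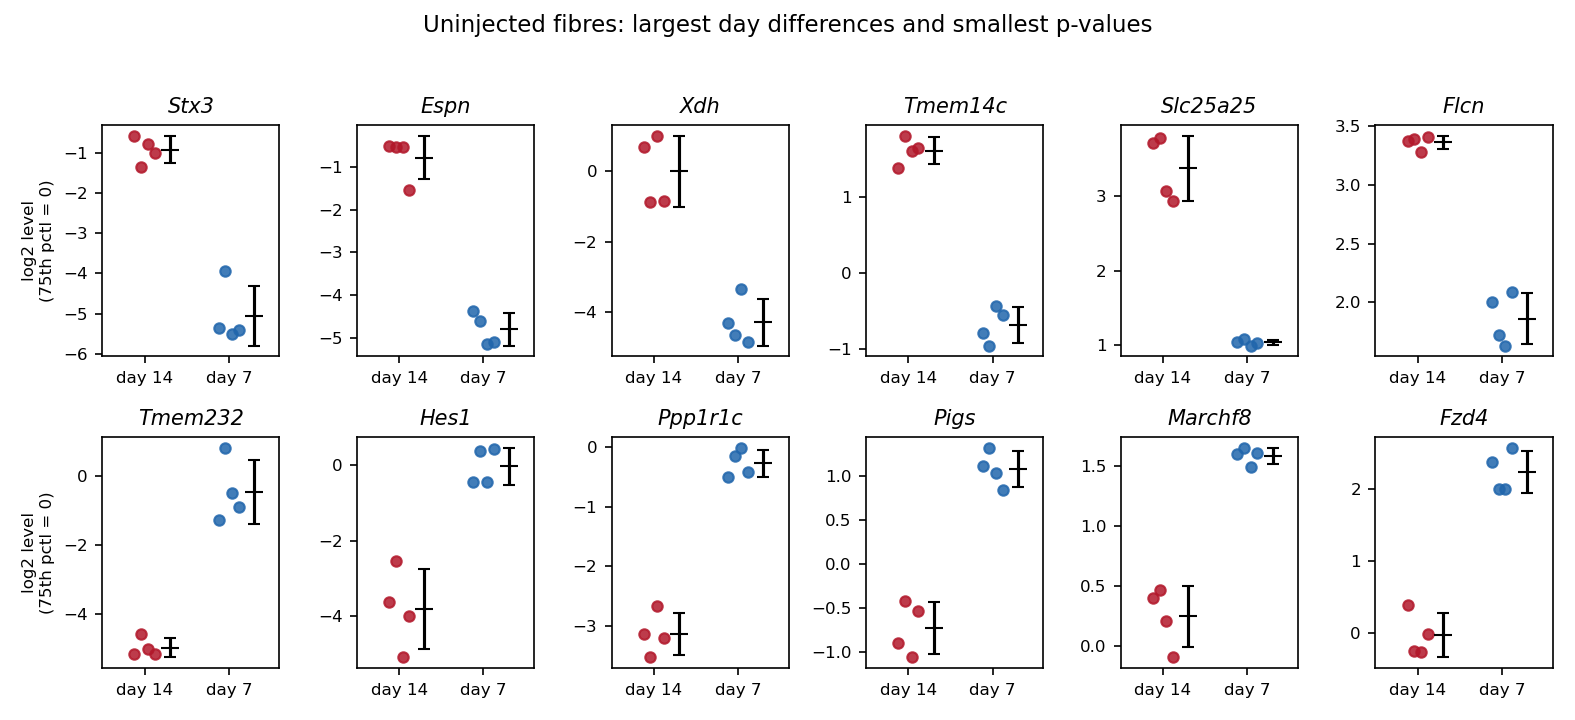
Levels of 12 genes with large or well-supported differences in each wild type fibre, day 14 and day 7, with the mean and SD as bars. The fibres of the days do not overlap for any of the 12, and Flcn and Marchf8 show the narrowest spread.

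Several called genes that are known to respond to contraction, adrenergic drive or fasting were higher in day 14 fibres. They were picked after their values were seen and form no list, so nothing is said of such genes as a group, and the fixed lists of immediate-early genes and of fasting targets, given below, do not share this direction. Slc25a25, a calcium-dependent mitochondrial carrier of ATP-Mg and phosphate, was at 3.72, 3.78, 3.07 and 2.93 in day 14 fibres, against 1.04, 1.08, 0.99 and 1.03 in day 7 fibres, 5.05-fold higher (log2 difference 2.34, standard error 0.24, adjusted p = 1.78e-06, limma). Nr4a3, a nuclear receptor induced by exercise, was at 1.21, 0.20, 1.27 and 1.10 at day 14, against -1.44, -1.58, -2.90 and -0.89 at day 7, 6.27-fold higher (adjusted p = 0.0109). Its relative Nr4a1 was at 4.82, 4.66, 4.58 and 4.85 at day 14, against 4.02, 3.84, 3.81 and 3.92 at day 7 (0.83, adjusted p = 0.0364), and lost its call whichever fibre was left out, with adjusted p up to 0.103. The third receptor of the family, Nr4a2, differed by 1.88 and did not pass (adjusted p = 0.177).

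Ppargc1a, which encodes the mitochondrial biogenesis coactivator PGC-1alpha, was at 4.13, 3.27, 4.23 and 4.55 in day 14 fibres, against 2.71, 2.43, 2.18 and 2.74 in day 7 fibres, 2.88-fold higher (log2 difference 1.53, standard error 0.33, adjusted p = 0.0128, limma). It was called in 6 of the 8 fits that leave out 1 fibre, with the highest adjusted p of 0.055 without day 14 fibre 4. With the myosin covariates its adjusted p was 0.00262, while Irs2, Trim63, Txnip, Nnmt, Rgcc, Tef, Bhlhe40 and Per3 lost their calls, as did 20 of the 56 called genes of the text in all. Ppargc1a was the only called gene of the 24 mitochondrial biogenesis regulators measured, a share of 4.17% against 2.41% of all genes. Noct, a clock-linked phosphatase of NADP(H), was at 1.31, 0.53, 1.43 and 1.23 at day 14, against -0.16, -1.0, -1.82 and -0.01 at day 7, 3.66-fold higher (adjusted p = 0.0095). Rab30, a Golgi GTPase, was at 0.39, -0.19, 0.16 and 0.21 at day 14, against -2.33, -2.14, -1.57 and -1.88 at day 7, 4.36-fold higher (adjusted p = 0.00251). A second probe for Rab30 differed by 1.09 and did not pass (adjusted p = 0.186, limma). Rgcc, a cell cycle regulator, was at 0.89, 2.26, 1.74 and 3.51 at day 14, against 0.06, 0.69, 0.31 and -0.74 at day 7 (2.02, adjusted p = 0.0172), and was not called without day 14 fibre 4 (adjusted p = 0.0734).

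Of the 15 NAD synthesis and sirtuin genes measured, 2 rose and none fell, a share of 13.3% against 2.41% of all genes. Nmrk2, the muscle kinase that turns nicotinamide riboside into an NAD precursor, was at 6.09, 6.60, 6.17 and 6.16 in day 14 fibres, against 4.84, 3.31, 2.67 and 4.38 in day 7 fibres, 5.49-fold higher (log2 difference 2.46, standard error 0.41, adjusted p = 0.00143, limma). The day 14 fibres lay close together (SD 0.23) and the day 7 fibres apart (SD 0.99). Nnmt, which methylates nicotinamide and so removes it from NAD salvage, was at -0.51, -0.69, -0.54 and -1.0 at day 14, against -2.60, -2.15, -2.36 and -2.26 at day 7 (1.66, adjusted p = 0.0164). Its other probe gave 0.36, and the call was lost without day 14 fibre 3 (adjusted p = 0.0575).

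Single members of the insulin, atrophy and fasting lists also passed. Irs2, an insulin receptor substrate, was at 5.12, 4.24, 5.14 and 5.50 in day 14 fibres, against 3.70, 3.84, 3.82 and 3.73 in day 7 fibres (log2 difference 1.23, adjusted p = 0.049, limma). Trim63, the muscle ubiquitin ligase MuRF1, was at 2.20, 3.09, 2.37 and 3.00 at day 14, against 1.59, 1.65, 0.87 and 1.64 at day 7 (1.23, adjusted p = 0.0266). It was the only called gene of 19 in the atrophy list, a share of 5.26% against 2.41% of all genes. Txnip, an inhibitor of glucose uptake, was at 5.28, 4.80, 4.34 and 5.05 at day 14, against 6.04, 6.19, 6.09 and 5.94 at day 7 (-1.20, adjusted p = 0.0197). The fibres of the days did not overlap for any of these 3 genes, but Irs2 was called in 1, Trim63 in 2 and Txnip in 5 of the 8 fits that leave out 1 fibre. Their highest adjusted p values were 0.154 for Irs2 and 0.091 for Trim63, both without day 14 fibre 4, and 0.0932 for Txnip without day 14 fibre 3. The 20 glucocorticoid and fasting targets held 1 rise (Irs2) and 1 fall (Txnip), a share of 10% against 2.41% of all genes, with a median of 0.12. Ppp1r3c, a subunit that targets phosphatase to glycogen, differed by 0.92 (adjusted p = 0.0315, limma). It was the only called gene of 32 in the glycolysis and glycogen list (3.12%). The one-carbon enzyme Mthfd2 was the only one of 25 in the stress response list (4%), with 1.27 (adjusted p = 0.0136). The amino acid transporter Slc7a5 was the only one of 20 in the amino acid list (5%), with 0.70 (adjusted p = 0.0225) and a second probe at 0.03. A single call in a list of this size is near the 2.41% of all genes and is not read as a result about the list. None of Ppp1r3c, Mthfd2 and Slc7a5 was called in all of the 8 fits, and their highest adjusted p values were 0.114, 0.0546 and 0.0922.

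**Figure D3:**
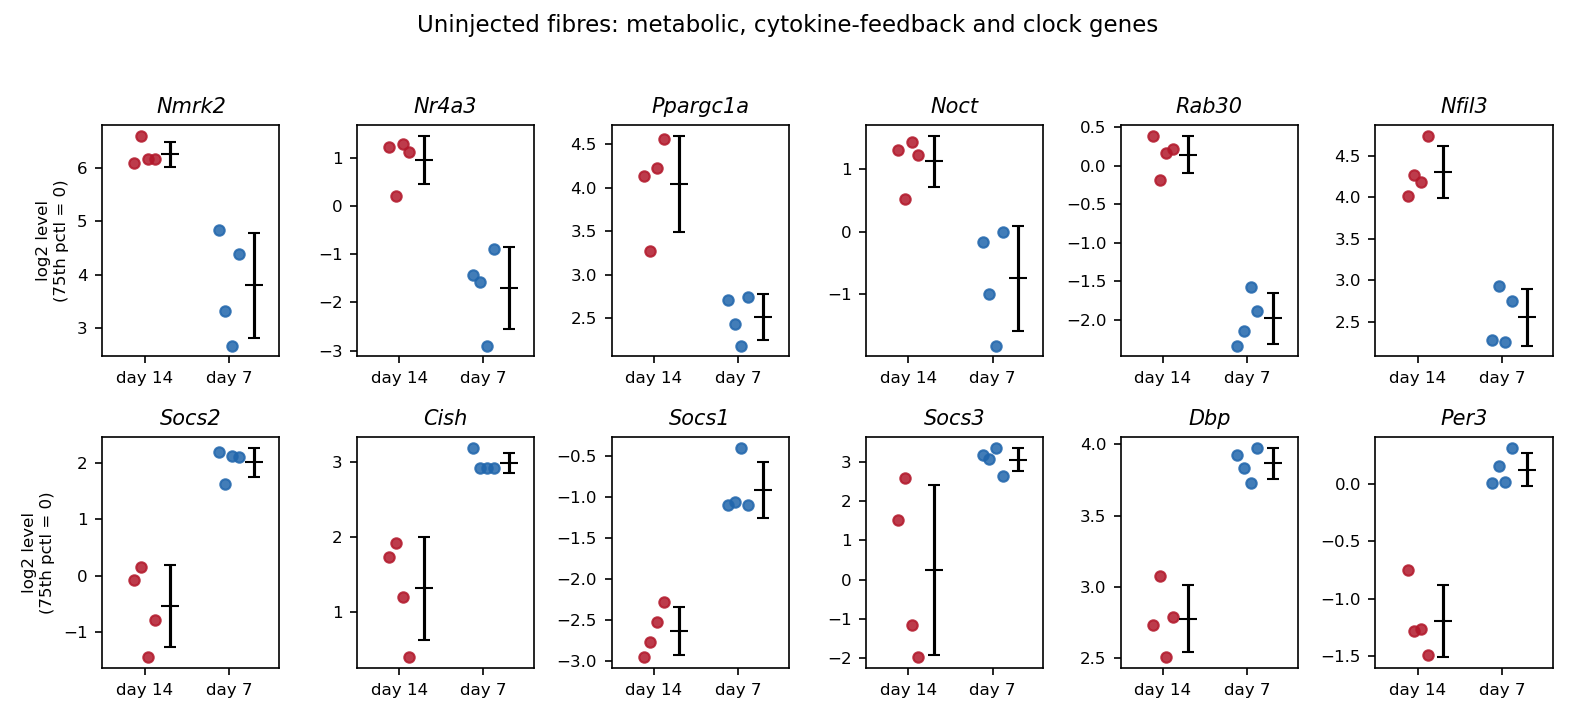
Levels of 12 contraction, fasting, cytokine and clock responsive genes in each wild type fibre, day 14 and day 7, with the mean and SD as bars. Nmrk2, Nr4a3, Ppargc1a, Noct, Rab30 and Nfil3 lie higher at day 14, Cish, Socs1, Socs2, Socs3, Dbp and Per3 lie lower, and Socs3 spreads from -1.98 to 2.58 at day 14.

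Slc25a25 and Flcn hold in the 250 bases before an annotated start site the cyclic AMP response element in its full palindromic form, TGACGTCA, searched on both strands. The element is in 1.55% of 32851 such windows of all genes. The windows of Flcn, Noct, Nr4a1, Nr4a3, Ppargc1a and Slc25a25 were searched, and those shown are the ones that hold the element. The sequences are RefSeq's on GRCm38.p6, read 5′ to 3′ on the strand of the gene, with the element in capitals. The Flcn window lies on the minus strand of chr11:59810040-59810289 with the element 41 bases before the start, and the Slc25a25 window, 1 of 3 for that gene, on the minus strand of chr2:32424067-32424316 with the element 142 bases before it.
Flcn: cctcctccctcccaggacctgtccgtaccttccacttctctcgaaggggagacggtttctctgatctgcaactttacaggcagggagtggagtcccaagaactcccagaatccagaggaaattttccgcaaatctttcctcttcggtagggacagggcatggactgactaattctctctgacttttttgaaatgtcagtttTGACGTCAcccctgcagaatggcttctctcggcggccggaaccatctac
Slc25a25: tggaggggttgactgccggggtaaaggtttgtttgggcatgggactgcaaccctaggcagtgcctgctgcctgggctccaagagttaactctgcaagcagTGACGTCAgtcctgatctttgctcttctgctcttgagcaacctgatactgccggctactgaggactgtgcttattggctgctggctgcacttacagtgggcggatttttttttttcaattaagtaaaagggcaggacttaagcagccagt
The windows of Noct, Nr4a1, Nr4a3 and Ppargc1a do not hold these 8 letters. A match describes the sequence only.

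Suppressors of cytokine signalling are induced by STAT proteins and in turn damp growth hormone and cytokine receptors. Of the 8 family members 7 were tested, and 4 of them fell in day 14 fibres, Cish, Socs1, Socs2 and Socs3. Of all genes 1.13% fell. Socs4, Socs6 and Socs7 overlapped between the days and did not pass, with differences of 0.15, -0.13 and -0.29 (adjusted p = 0.909, 0.863 and 0.372, limma). The family was looked at after values of its members were seen, and all but Socs2 and Socs3 lie outside the rule by which genes were named, so it is described and not tested as one. Socs2, the member most tied to growth hormone, was at -0.07, 0.16, -1.45 and -0.78 in day 14 fibres, against 2.19, 1.62, 2.12 and 2.10 in day 7 fibres, 5.83-fold lower (log2 difference -2.54, standard error 0.25, adjusted p = 7.03e-07, limma). Its other probes gave -1.85 and -2.50. Cish was at 1.73, 1.91, 1.20 and 0.39 at day 14, against 3.19, 2.92, 2.92 and 2.92 at day 7 (-1.67, adjusted p = 0.000263). Socs1 was at -2.95, -2.77, -2.53 and -2.28 at day 14, against -1.10, -1.06, -0.39 and -1.09 at day 7 (-1.72, adjusted p = 0.0095). These 3 were called in every fit that left out 1 fibre. Socs3, the member most tied to interleukin signalling, was at 1.52, 2.58, -1.16 and -1.98 at day 14, against 3.16, 3.07, 3.36 and 2.64 at day 7 (-2.81, adjusted p = 0.0493). The 4 day 14 fibres split into 2 at 1.52 or above and 2 at -1.16 or below, and Socs3 was called in only 2 of the 8 fits, with an adjusted p of 0.187 without day 14 fibre 4 and of 0.134 with the myosin covariates.

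The Socs3 promoter window is shown because it holds the spaced palindrome read by STAT proteins, TTCNNNGAA, which is in 7.02% of the 32851 windows. It lies on the minus strand of chr11:117969367-117969616 (GRCm38.p6, RefSeq), and the palindrome, in capitals, is 145 bases before the start.
Socs3: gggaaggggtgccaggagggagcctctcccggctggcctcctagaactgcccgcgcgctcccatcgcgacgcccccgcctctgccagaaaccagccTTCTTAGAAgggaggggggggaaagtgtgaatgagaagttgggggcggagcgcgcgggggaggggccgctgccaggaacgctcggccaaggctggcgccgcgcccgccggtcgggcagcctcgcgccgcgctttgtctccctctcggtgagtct
The windows of Cish and Socs1 do not hold this palindrome.

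Of 22 IGF1 and growth signalling genes measured, 1 rose (Irs2) and 2 fell, a share of 13.6% against 2.41% of all genes, and the median was -0.13. Acvr2b, the activin and myostatin receptor, was at 2.34, 1.50, 1.39 and 2.17 in day 14 fibres, against 2.94, 3.15, 3.21 and 3.04 in day 7 fibres (log2 difference -1.24, standard error 0.19, adjusted p = 0.00065, limma), and was called in all 8 fits. Its other probe gave -1.20 and did not pass (adjusted p = 0.0805, limma). Mtor, the kinase that couples nutrients to protein synthesis, was at -0.35, -0.79, -0.87 and -0.66 at day 14, against 0.64, 0.21, -0.14 and 0.35 at day 7 (-0.93, adjusted p = 0.0116), and was not called without day 14 fibre 3 (adjusted p = 0.0544). The other Mtor probe, above background on 1 day 14 and 2 day 7 arrays, gave -0.64 and did not pass (adjusted p = 0.65, limma).

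Of 25 immediate-early genes measured, 2 rose (Nr4a3 and Nr4a1), 1 fell (Socs3) and 22 did not pass, a share of 12% called against 2.41% of all genes, with a median of -0.45. The fibres of 11 of them (44.0%, against 11.4% of all genes) did not overlap between the days. Junb, an AP-1 subunit, was at 1.46, 2.50, 1.33 and 1.52 in day 14 fibres, against 3.26, 3.30, 3.58 and 3.06 in day 7 fibres, with a difference of -1.60 that did not pass (adjusted p = 0.0749, limma). Egr1 and Egr2, zinc finger factors of early growth, differed by -1.31 and -2.44 (adjusted p = 0.0868 and 0.0802), and Klf6 by 1.31 (adjusted p = 0.106). No AP-1 or EGR gene of the list passed.

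The circadian clock list had the largest share of called members of the 43 lists, which were chosen with earlier results of these data known. Of 18 clock and clock output genes measured, 1 rose and 5 fell (33.3%, against 2.41% of all genes), and the median was -0.24. The list median was also -0.24 in MCU-vector fibres and -0.31 in control-vector fibres, so it is not particular to wild type fibres. Dbp, a leucine zipper activator of clock output, was at 2.73, 3.08, 2.50 and 2.78 in day 14 fibres, against 3.93, 3.83, 3.73 and 3.98 in day 7 fibres (log2 difference -1.09, standard error 0.19, adjusted p = 0.00272, limma), and a second probe gave -1.54. Nfil3, the repressor that competes with Dbp for the same sites, was at 4.01, 4.26, 4.19 and 4.74 at day 14, against 2.28, 2.94, 2.26 and 2.75 at day 7, 3.34-fold higher (adjusted p = 0.00151). Both were called in all 8 fits that leave out 1 fibre, and their fibres did not overlap between the days.

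The other called clock genes fell. Tef, a relative of Dbp, was at 3.42, 3.24, 3.14 and 3.41 in day 14 fibres, against 3.71, 4.12, 3.91 and 4.13 in day 7 fibres (log2 difference -0.66, adjusted p = 0.00979, limma). Bhlhe40, a helix-loop-helix repressor, was at 1.65, 2.21, 0.94 and 1.15 at day 14, against 2.66, 2.87, 2.17 and 3.06 at day 7 (-1.20, adjusted p = 0.0118), with day 14 fibre 2 just above day 7 fibre 3. Per3 and Nr1d1 lie outside the naming rule and complete the count. Per3, a period gene, was at -0.75, -1.28, -1.26 and -1.49 at day 14, against 0.01, 0.15, 0.01 and 0.32 at day 7 (-1.32, adjusted p = 0.0272). Nr1d1, the receptor REV-ERBalpha, was at 1.69, 2.24, 1.62 and 2.42 at day 14, against 2.66, 2.91, 2.67 and 2.77 at day 7 (-0.76, adjusted p = 0.0136). Without day 14 fibre 3 none of Tef (adjusted p = 0.0503), Bhlhe40 (0.0661) and Nr1d1 (0.0737) was called, and Per3 was called in 1 of the 8 fits, with an adjusted p of up to 0.0882. Hlf, the remaining relative of Dbp and also outside the naming rule, differed by -1.23 and did not pass (adjusted p = 0.0655). Arntl and Clock, the activators at the head of the loop, differed by 0.10 and -0.03, and Per1 and Per2 by 0.60 and -0.76, none past the threshold. The hour of collection is not given in the sources used here.

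**Figure D4:**
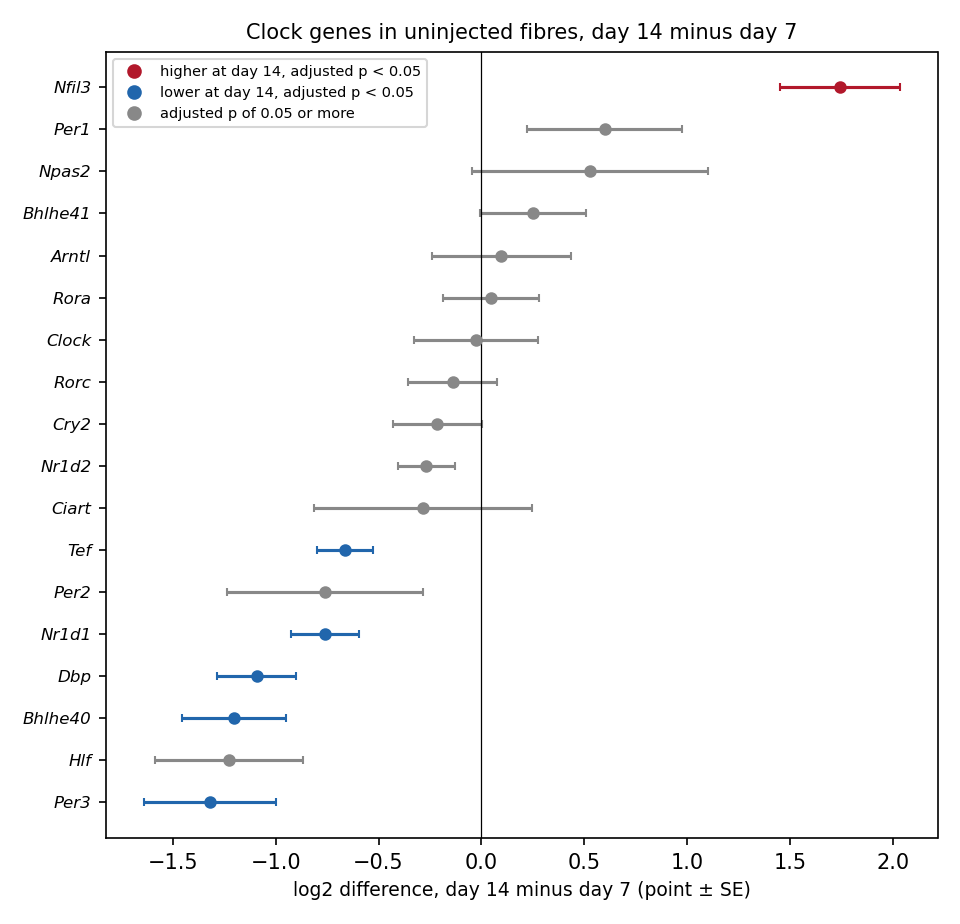
Log2 difference, day 14 minus day 7, of the 18 clock list genes in wild type fibres, with bars of 1 standard error from limma. Nfil3 stands at 1.74, Per3, Bhlhe40, Dbp, Nr1d1 and Tef between -1.32 and -0.66, and Arntl and Clock near 0.

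The Per3 window is shown because it holds the site that Dbp, Tef, Hlf and Nfil3 share, the D-box TTATGTAA, 2 times, the nearer 150 bases before the start. The D-box is in 0.819% of the 32851 windows, searched on both strands. The window lies on the minus strand of chr4:151044666-151044915 (GRCm38.p6, RefSeq), and both D-boxes are in capitals.
Per3: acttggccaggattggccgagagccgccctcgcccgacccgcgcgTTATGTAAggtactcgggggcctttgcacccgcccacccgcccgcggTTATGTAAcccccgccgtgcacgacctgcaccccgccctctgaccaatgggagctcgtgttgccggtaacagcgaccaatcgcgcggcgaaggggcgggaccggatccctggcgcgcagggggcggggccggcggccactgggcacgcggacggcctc
The windows of Dbp, Nfil3, Nr1d1 and Tef do not hold these letters. Both Tef windows hold the E-box CACGTG, as do 6.02% of all windows.

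Genes of energy supply and contraction had few calls. None of 37 complex I subunits and none of 40 subunits of complexes II to V passed. Of these subunits 36 and 35 had a positive difference, as did 13262 of all 23342 genes. The medians of these subunits, 0.16 and 0.14, compare with 0.05 over all genes, and stay above 0 under the 3 other scalings tried. In MCU-vector fibres the same medians were 0.07 and 0.04, and in control-vector fibres 0.22 and 0.27. Ndufv3 had the smallest p of complex I, at 6.29, 6.38, 6.38 and 6.35 in day 14 fibres, against 6.13, 5.74, 5.88 and 6.07 in day 7 fibres (log2 difference 0.39, adjusted p = 0.0635, limma). The TCA cycle list (25 genes, median 0.11) and the fatty acid oxidation list (28 genes, median 0.11) held no call. The excitation-contraction coupling list (33 genes, median -0.16), the ribosomal proteins (41 genes, 0.05) and the proteasome (31 genes, 0.03) held none either. The last pair of medians turned below 0 when arrays were scaled to their median or quantile normalized. At an unadjusted p of 0.05, 7 complex I genes, 5 of complexes II to V and 5 of the coupling list passed. These are shares of 18.9%, 12.5% and 15.2%, near the 15.8% of all genes.

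The lists of stretch and heat shock genes had high medians and no call. Of 17 genes that respond to stretch at the Z-disc 16 had a positive difference, with a median of 0.53. Of 22 heat shock genes 19 did, with a median of 0.36, and so did 13262 of all 23342 genes. The stretch median was 0.46 in MCU-vector and 0.20 in control-vector fibres, and the heat shock median 0.25 and -0.04. Xirp1, an actin-binding repair protein, was at 3.34, 2.57, 4.84 and 5.97 in day 14 fibres, against 2.95, 2.72, 2.67 and 1.83 in day 7 fibres. Its difference of 1.64 did not pass (adjusted p = 0.179, limma), and only day 14 fibres 3 and 4 lay well above the day 7 range. Cryab, a small heat shock protein of the Z-disc, was at 6.60, 6.59, 7.16 and 7.49 at day 14, against 6.67, 5.99, 6.22 and 6.09 at day 7 (0.72, adjusted p = 0.0704). Ttn, the giant spring of the sarcomere, was the only called gene of 17 in the fast sarcomere list (5.88%, against 2.41% of all genes). It was at 6.15, 5.12, 5.27 and 5.33 at day 14, against 6.19, 6.62, 6.36 and 6.61 at day 7 (-0.98, adjusted p = 0.0158). Its other 3 probes gave -1.13, -0.71 and 0.03, and it was called in 4 of the 8 fits that leave out 1 fibre, with an adjusted p of 0.0669 without day 14 fibre 3. None of 11 slow sarcomere genes passed.

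Over all 43 lists 797 different genes were measured, and 33 of them passed (4.14%, against 2.41% of all genes). Of these 15 were higher and 18 lower at day 14. The lists were chosen with earlier results of these data known, so their shares may follow in part from that choice. Of 19 histone and cell cycle genes 2 rose and 1 fell, a share of 15.8% against 2.41% of all genes. Cdk1 and Ccnb1, which drive mitosis, differed by 0.77 and 0.65 (adjusted p = 0.0137 and 0.0495, limma), and Cdkn1b, the inhibitor p27, by -0.64 (adjusted p = 0.0103). Cdkn1b was called in all 8 fits, Cdk1 in 6 and Ccnb1 in 2. The other Cdkn1b probe, above background on no day 14 array, gave a fitted difference of -1.03 that did not pass (adjusted p = 0.339, limma). The agrin receptor Lrp4 of the neuromuscular junction list differed by -1.52 (adjusted p = 0.0177) and was called in 4 fits, with 0.0817 the highest adjusted p. The lipogenic factor Srebf1 differed by -0.75 (adjusted p = 0.0265), and the hypoxia gene Ankrd37 by -1.01 (adjusted p = 0.0362). These 2 were called in 3 fits and 1, with adjusted p up to 0.0947 and 0.125. Hopx, a homeodomain protein of muscle and heart, was at -3.54, -3.82, -2.86 and -2.45 in day 14 fibres, 2 of them above background, against -1.16, -1.44, -1.44 and -1.68 in day 7 fibres (-1.74, adjusted p = 0.00768), and was called in all 8 fits. Its other probe gave -0.75 and did not pass (adjusted p = 0.521, limma).

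CD1 is outbred, so genotype can differ between mice. Of 9 genes whose level is known to follow genotype in mice, 1 was called (11.1%, against 2.41% of all genes), Glo1, glyoxalase. It was at 4.53, 4.84, 4.68 and 4.69 in day 14 fibres, against 4.09, 4.27, 3.96 and 3.97 in day 7 fibres (log2 difference 0.61, adjusted p = 0.0139, limma). The fibres of the days did not overlap and the call was kept in all 8 fits, with adjusted p up to 0.0496. Whether the fibres of 1 day share a mouse or a genotype was not tested.

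Of 23 interferon genes measured, 2 fell and none rose, a share of 8.70% against 2.41% of all genes, and the median was -0.17. Ifit3, an antiviral effector, was at -3.47, -3.94, -2.37 and -3.22 in day 14 fibres, 1 of them above background, against -1.94, -1.73, -2.39 and -1.68 in day 7 fibres (log2 difference -1.32, adjusted p = 0.0337, limma), and was called in 2 of the 8 fits. Irf9, the DNA-binding subunit of the interferon response complex, differed by -1.34 (adjusted p = 0.0438) and was called in 1 fit, with an adjusted p of 0.197 without day 14 fibre 3. The antigen presentation list (21 genes) held no call. Iigp1b, Xaf1, Cd274 and Tap1, all interferon-induced, were above background on none of the 8 wild type arrays.

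Markers of other cells were measured in the same fibres, as hand-picked fibres can carry attached cells. The linear signal summed over 11 satellite cell markers, relative to the 75th percentile, was 2.72 to 5.44 in day 14 fibres, with 4 to 6 of the markers above background, and 2.70 to 7.57 in day 7 fibres, with 5 to 7 above it. That of 20 fibroblast and matrix markers was 12.5 to 28.9 at day 14 and 10.1 to 42.2 at day 7. Notch3 is itself in the satellite list, and without it the sum of the other 10 markers was 2.67 to 5.33 at day 14 and 2.57 to 4.39 at day 7. The fibroblast sum was highest in day 7 fibre 3, the fibre with the most Notch3. Pax7 and Myf5, which define satellite cells, were above background on fewer than 3 arrays of every group. The ranges also overlapped for 18 endothelial markers (22.8 to 26.3 at day 14, 20.4 to 38.9 at day 7), 19 macrophage markers (309 to 320, 287 to 345) and 12 mural markers (374 to 398, 355 to 404), as well as for the adipocyte, erythroid, neutrophil and lymphocyte lists. A linear sum rests on its brightest markers, so an overlap says little about dim ones. The dim macrophage marker Adgre1, above background on 4 day 14 arrays and 1 day 7 array, differed by 1.47 without overlap. It did not pass (adjusted p = 0.0648, limma). Of the 12 macrophage markers tested, 7 had a positive and 5 a negative difference. Some wide ranges came from a single fibre. Day 7 fibre 3 held 38.9 for endothelial, 42.2 for fibroblast and 30.2 for erythroid markers. The other day 7 fibres held 20.4 to 21.6, 10.1 to 13.7 and 8.0 to 10.2. For erythroid markers day 14 fibre 1 held 28.6 and the other day 14 fibres 7.43 to 11.3. The 9 tendon markers ranged from 6.29 to 14.6 at day 14 and from 13.8 to 42.6 at day 7. The 12 Schwann cell markers ranged from 2.62 to 3.73 and from 3.44 to 5.23. Both sums thus lay mostly lower at day 14, but the single markers did not share this direction. Of the 7 Schwann cell markers tested, 4 had a positive and 3 a negative difference, with a median of 0.17. Of the 6 tendon markers tested, 3 were positive and 3 negative, with a median of -0.09. Called markers were Sox10 of Schwann cells (-1.19, adjusted p = 0.0451, limma), Col5a1 of fibroblasts (1.28, adjusted p = 0.0478) and Notch3, which is in both the satellite and the mural list. Sox10 was called in 1 and Col5a1 in 2 of the 8 fits that leave out 1 fibre, with adjusted p up to 0.158 and 0.174. In single fibres fewer attached cells and less RNA per cell cannot be told apart, and the part of attached cells in these 3 calls was not tested.

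The same day contrast in injected fibres shows how far the wild type differences recur. MCU-vector fibres lie on the same slides as the wild type fibres of their day but are different fibres. Their day contrast called 667 genes (2.86%), of which 213 were also called in wild type fibres, 37.8% of the wild type list and 31.9% of the MCU-vector list. All 213 had the same sign. Of the 563 wild type genes, 537 (95.4%) had the same sign in MCU-vector fibres, against 69.0% of all genes. The control-vector fibres lie on other slides, scanned in another session. Their contrast called 762 genes (3.26%), of which 57 were shared, 10.1% of the wild type list and 7.48% of the control-vector list, and 35 of these had the same sign. Of the 563 genes 268 (47.6%) had the same sign in control-vector fibres, against 53.7% of all genes. Slide and vector differ together between these comparisons, so their parts cannot be told apart.

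The differences between day contrasts were also tested. The wild type contrast minus that of control-vector fibres passed for 531 genes (2.27%), 270 positive (1.16%) and 261 negative (1.12%), and 226 of the 563 wild type genes were among them. The wild type contrast minus that of MCU-vector fibres passed for 47 genes (0.201%), 43 positive (0.184%) and 4 negative (0.0171%), and 2 of the 563 were among them, Ifit3 and Trim34a, a relative of TRIM34 that lies outside the naming rule. The first count was 376 to 570 when a control-vector fibre was left out, and 316 to 517 when a wild type fibre was. The second was 30 without MCU-vector day 7 fibre 3.

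For the genes described above, the contrasts stand side by side as follows. Tmem14c differed by 2.29 in wild type fibres, 2.35 in MCU-vector fibres and 0.05 in control-vector fibres, and the wild type value minus the control-vector value was 2.24 (adjusted p = 3.54e-05, limma). Slc25a25 differed by 2.34, 2.68 and -0.28 in the same order, Flcn by 1.50, 1.49 and -0.27, Nmrk2 by 2.46, 2.92 and 0.02, and Socs2 by -2.54, -2.39 and -0.33. In each of these the MCU-vector fibres, on the same slides, had a difference near the wild type one and the control-vector fibres one closer to 0. These genes were named for their wild type difference or, as Flcn was, for a small p of the wild type contrast minus the control-vector contrast. The pattern thus follows in part from the choice of genes, and the counts over all called genes are given above. Stx3 was above background on no day 7 array of wild type or MCU-vector fibres and was at least 5.08-fold higher at day 14 in wild type and at least 6.75-fold in MCU-vector fibres. In control-vector fibres, above background on all 8 arrays, it differed by 0.75 (adjusted p = 0.183). Fzd4, with -2.27, -2.29 and 0.79, had a control-vector value of the other sign. Dbp differed by -1.09, -1.45 and -0.41, and Nfil3 by 1.74, 1.25 and 0.21.

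Espn and Zfp780b were measured on the same side in all 3 kinds of fibre. Espn, above background on all arrays of day 14 and none of day 7, was higher at day 14 by at least 5.65-fold in wild type, 8.79-fold in MCU-vector and 6.45-fold in control-vector fibres (adjusted p = 2.56e-06 in the last, limma). Zfp780b, above background on all arrays of day 7 and none of day 14, was lower at day 14 by at least 3.36-fold, 1.88-fold and 1.97-fold (adjusted p = 0.0137 in MCU-vector and 0.00183 in control-vector fibres). Bounds have no order among them. Tmem232 was lower at day 14 by at least 7.74-fold in wild type and 7.95-fold in MCU-vector fibres, and was not above background on any control-vector array. Hes1, at least 9.11-fold lower at day 14 in wild type fibres, had mean levels of -2.05 at day 14 and -1.61 at day 7 in MCU-vector fibres and did not pass there (adjusted p = 0.866). Socs3 differed by -2.81 in wild type and 0.54 in MCU-vector fibres, and Ppargc1a by 1.53 and 0.66, but the difference between the contrasts passed for none of Hes1, Socs3 and Ppargc1a (adjusted p = 0.241, 0.788 and 1). Rgcc and Hopx ran opposite ways against the control-vector fibres, with 2.02 and -1.74 in wild type fibres and -2.20 and 1.88 in control-vector fibres. Gdpd3 did too, at least 4.65-fold lower at day 14 in wild type fibres and at least 13.5-fold higher at day 14 in control-vector fibres.

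Of the 47 genes whose day contrast differed from that of MCU-vector fibres, 18 were in the interferon or antigen presentation lists and 12 were above background on no wild type array. Cep162, a centrosome protein in neither list, differed by 0.12 in wild type and -1.72 in MCU-vector fibres (difference 1.84, adjusted p = 6.34e-07, limma). Trim34a was at -1.74, -2.14, -1.72 and -1.76 in wild type fibres of day 14, against -2.99, -2.73, -2.99 and -3.08 at day 7, a difference of 1.11 (adjusted p = 0.0206, limma), and differed by -0.68 in MCU-vector fibres. Ifit3 differed by -1.32 in wild type and -4.08 in MCU-vector fibres. Iigp1b, Xaf1, Cd274 and Tap1, not above background on any wild type array, were also above background on no MCU-vector array of day 14 and on all 3 of day 7, so that they were lower at day 14 by at least 30.6-fold, 8.38-fold, 7.83-fold and 3.35-fold in those fibres. The median over the 23 interferon genes was -0.17 in wild type, -2.31 in MCU-vector and 0.12 in control-vector fibres.

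**Figure D5:**
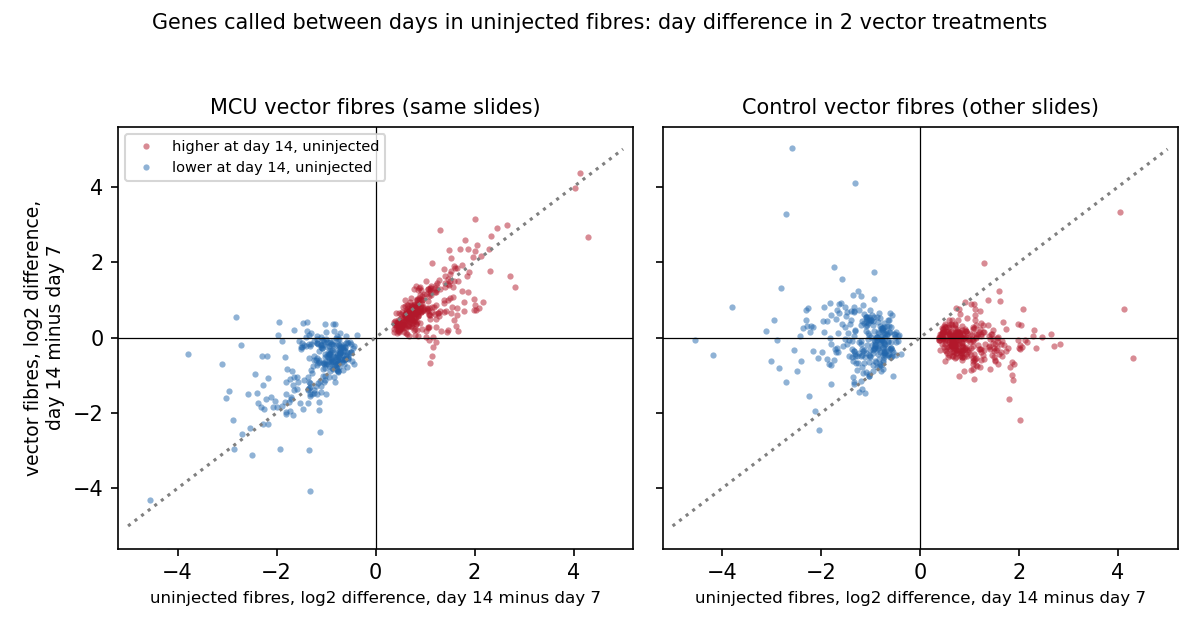
Day 14 minus day 7 log2 difference of the 563 genes called in wild type fibres (horizontal) against the same difference in MCU-vector fibres of the same slides (left) and control-vector fibres of other slides (right), 1 point a gene, with the dotted line of equality, as fitted also where a gene was not above background on 1 side. On the left 537 points (95.4%) have the same sign on both axes, and on the right 268 (47.6%).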

How the data were processed

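Each array measured the RNA of 1 muscle fibre on a 1-colour Agilent mouse array (60-base probes, positions on mm9). Per the file headers, the deposited intensities were extracted with Agilent Feature Extraction 10.7.3.1, and gProcessedSignal is already background-subtracted and detrended within the array. Other columns of the deposited files hold flags, per the file headers, of which well above background, saturation and outlier spots were used.

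From these, 59305 non-control spots were averaged to 55681 probes, after outlier spots were left out. The log2 of the deposited processed intensity, minus the 75th percentile of its array, is the level. A probe was kept where 1 or more of the 8 groups had 3 arrays or more with the probe well above background (33164 probes), and the brightest probe of each gene gave 23342 genes. Symbols came from the probe's accession (26425 probes), current symbol (3988) or synonym (826) in RefSeq's table, and 24442 probes kept the file's name. Group means of all 30 arrays were fitted with limma 3.58.1 in R 4.3.3 (22 residual degrees of freedom) and p-values adjusted after Benjamini-Hochberg over all genes, with calls at 0.05. The model was tested on simulated data. The deposited series table holds linear values; its scaling is not given in the sources used here, and each column correlated with its own array at r of at least 0.998 and with others at no more than 0.981.

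The labels do not say whether the same replicate number pairs fibres. Correlations of same-numbered fibres' deviations from their group means ran from -0.13 to 0.33. Those of differently numbered fibres ran from -0.27 to 0.18, so the values do not decide it. Same-numbered wild type fibres also lay at the same position of their slides. Named genes are Mcu, the 15 largest rises and falls measured on both sides, the 5 smallest p in each direction, the 5 largest bounds in each direction, up to 4 members per list with the largest moderated t, and the 5 smallest p in each direction of each comparison of day contrasts; some genes outside this rule, Hlf, Myh4 and other members of fixed lists among them, are given to complete a list or family. The members and the 43 gene lists were chosen with earlier results of these data known. Alternatives covered scaling, background correction, the filter, array weights, covariates, the replicate block, the authors' table and leaving out each fibre. The number of fibres limits the precision.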

Additional observations from a re-analysis of the deposited data

Results flagged for a closer look

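Among 132 sets of 4 fibres examined, 1 set for each day of 66 genes, 13 held a fibre whose gap to its neighbour exceeded Dixon's 95% critical value for 4 samples; chance gives about 1 in 20 sets. In day 14 fibres, fibre 2 stood low for Gdpd3 (-4.80), Nr4a3 (0.20) and Trim34a (-2.14) and high for Nmrk2 (6.60) and Ppp1r3c (4.13), and fibre 4 stood low for Espn (-1.54). In day 7 fibres, fibre 3 stood high for Notch3 (1.67), Socs1 (-0.39) and Xaf1 (-4.55) and low for Trim63 (0.87), fibre 2 stood high for Stx3 (-3.95) and low for Socs2 (1.62), and fibre 1 stood high for Cish (3.19). Xaf1 was not above background in any of these fibres.

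The day contrast of wild type fibres minus that of control-vector fibres passed (limma, adjusted p below 0.05) for 33 of the 66 genes. These genes include ones chosen for the smallest p of this comparison or for a large wild type difference, so the share says nothing beside the 2.27% of all genes that passed. It was positive for Rgcc (4.22), Noct (3.01), Slc25a25 (2.62), Nmrk2 (2.44), Psmc3ip (2.29), Tmem14c (2.24), Rab30 (2.19), Ppargc1a (1.85), Col5a1 (1.84), Abcc9 (1.81), Flcn (1.77), Nfil3 (1.53), Ccnb1 (1.14), Cdk1 (1.06) and Slc7a5 (0.97). Of these, Abcc9, a subunit of the ATP-sensitive potassium channel, differed in control-vector fibres (-2.20, adjusted p = 5.58e-09) and did not pass in wild type fibres (-0.38, adjusted p = 0.242). It was negative for Socs3 (-4.13), Hopx (-3.62), Fzd4 (-3.06), Sox10 (-2.29), Socs2 (-2.21), Ppp1r1c (-2.06), Pigs (-1.65), Bhlhe40 (-1.53), Cish (-1.41), Mtor (-1.11), Marchf8 (-0.99) and Tef (-0.76). For another 6 genes at least 1 of the 4 groups was above background on no array, so the fitted value is neither a fold nor a bound and has no order: Gdpd3 (-7.61), Hes1 (-4.62), Ifit3 (-5.41), Stx3 (3.37), Tmem232 (-4.48) and Xdh (4.84). Wild type and control-vector fibres lie on different slides, so slide and vector cannot be told apart here.

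The wild type contrast minus that of MCU-vector fibres, on the same slides, passed for 7 of the 66 genes, some of them chosen for the smallest p of this comparison, and for 0.201% of all genes. The value was 2.76 for Ifit3 (above background on 1 of 4 wild type arrays of day 14), 1.78 for Trim34a and -3.30 for Mcu (adjusted p = 0.00343). For Cd274, Iigp1b, Tap1 and Xaf1, above background on no wild type array, the fitted values of 4.94, 6.76, 3.65 and 4.84 rest on levels at background and have no order.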

How the results depend on the processing

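The 563 calls of the wild type day contrast became 1031 with normexp background correction, 1314 with array weights, 280 with Myh4 and Myh1 levels as covariates and 354 with the replicate number as a block, and ran from 167 to 526 with 1 wild type fibre left out. The 531 calls against control-vector fibres became 999, 1069, 510 and 339 under the same settings, and ran from 316 to 570 with 1 fibre left out. The 47 calls against MCU-vector fibres became 77, 87, 54 and 33, ran from 30 to 54 with 1 fibre left out, and became 24 and 27 when only probes above background on all 8 wild type arrays, or on 3 of a wild type group, were tested, a choice that removes interferon genes measured only in injected fibres. The replicate block rests on numbers that the labels do not give as pairs, and under it Myh1 passed (adjusted p = 0.0363, limma). Scaling by the array median called 387 genes, 144 higher and 243 lower, in place of 299 and 264, and moved the medians of the 43 lists by -0.06 (median), with a change of sign in 8. The 8 wild type arrays alone called 404 genes, quantile normalization called 665, the authors' deposited series values gave 658, and 427 were called without a filter on dim probes. With the 8 wild type arrays alone, 20 of the 56 called genes of the text lost their call. Of 1273 alternative values for 56 called genes of the text, 1050 kept the call, 223 lost it and none changed sign, while among 20 values from other probes 8 kept it, 11 lost it and 1, for Ttn, changed sign (0.0255, adjusted p = 0.987). The cause of these changes was not tested. No slide holds wild type fibres of both days, so a fit of this contrast with slide as a block was not possible. Dim probes limit the differences of genes near background.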
